A study of Arabidopsis thaliana with 26 samples.

Results

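Among 26676 probe sets, the rows of the deposited table, measured in leaves of Arabidopsis thaliana, 153 were higher after 1 day of darkening in both genotypes, still higher after 6 days in Col-0, and back near the level in light after 6 days in pif5. They are described here by their level on every array, by the time at which they parted between the genotypes, and by their level in pif5 at day 12. The rule averaged the log2 values of each group and took the change from day 0 of the same genotype. It kept rows with a change of at least 0.8 at day 1 in pif5, at day 1 in Col-0 and at day 6 in Col-0, and with an absolute change under 0.5 at day 6 in pif5. A cut at the 200 rows with the largest gap between the genotypes at day 6 was part of the rule and was not reached. The values at days 0, 1 and 6 therefore chose the rows and are given as a description, with no test. The arrays of day 3 in both genotypes and of day 12 in pif5 were not used in the choice, and all tests below compare these.

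The study used 26 single-colour arrays in 9 groups. In pif5, the labelled PIF5 knockout, which the series design names as the line pif5-621, there were 3 arrays each at 0, 1, 3 and 6 days of darkening and 2 arrays at 12 days. In Col-0, the wild type, there were 3 arrays each at 0, 1, 3 and 6 days. Day 0 stands for leaves kept in light. All plants grew in short days, and on each plant single fully expanded leaves were covered with foil-coated mittens while the other leaves stayed uncovered in the day and night cycle. Leaf blades were taken at noon. Only 1 mutant line was used, the labels give no plant age, and there is no group of leaves kept in light for the later days. Time in darkness and elapsed time therefore cannot be told apart in a change from day 0. Nothing in the labels ties replicates to different plants. The p-values below therefore refer to the spread between these arrays, which may be technical.

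PIF5 is a phytochrome-interacting transcription factor of the basic helix-loop-helix type that accumulates in darkness and is broken down after phytochrome is activated by light. It is known as a promoter of leaf senescence in darkness, acting with its relative PIF4 upstream of the ethylene and abscisic acid pathways and of NAC transcription factors such as ORE1. Covering a single leaf of a plant that stays in light speeds its senescence, with loss of chlorophyll and export of nutrients. An early part of any dark response is the shift to use of stored carbon and amino acids as photosynthesis stops, and the senescence programme follows it.

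The rows are given by their identifier in the deposited table, with no gene name. Of the 153 rows, the platform annotation lists 1 gene for 92, several for 3 and none for 58. A single gene was listed for 60.1% of the rows described here and for 60.6% of all rows. The names were set against the values through genes that leaves express strongly. Of 32 nuclear genes of photosystems, light-harvesting complexes and Rubisco, 4 had a listed row, and these lay at a median percentile of 47.9 of all rows in light, with the highest at 71.6. The labelled tissue was thus not borne out by its markers under these names. No row was listed for a ribosomal protein by an RPL or RPS symbol, and the names were not used. Identifiers and values may also be out of step in the table. In Col-0 at day 6, the row listed for LKR/SDH, a lysine-degrading enzyme known to be induced in darkened leaves, stood 0.33 above light on the log2 scale, and the row just before it stood 6.33 above light. This example was picked after its values were seen, and an offset was not tested over the whole table. An identifier printed below therefore marks a row of values and may not belong to the transcript measured there.

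In light the rows covered a wide range of levels. They ran from 3.19 to 10.12 on the log2 scale in pif5 and from 3.21 to 10.05 in Col-0. Their median was 5.13 in pif5 and 5.02 in Col-0, against 4.31 over all rows in either genotype. By level in pif5 in light, 28 rows lay below 4, 78 between 4 and 6, 41 between 6 and 8, and 6 at 8 or above. Their median level lay at percentile 63.9 of all rows in pif5 and 62.2 in Col-0. For rows of low level, a log2 difference on an array understates the change when part of the signal is background. In the order of the table, 8 of the 153 rows had another of them in the next row, and no pair held identical values.

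The median over the 153 rows gives their common course on each array. In pif5 it was 5.14, 5.15 and 5.09 on the arrays in light, 6.31, 6.35 and 6.12 after 1 day, 5.80, 5.90 and 5.86 after 3 days, 5.37, 5.57 and 5.41 after 6 days, and 5.45 and 5.27 after 12 days. In Col-0 it was 4.95, 5.01 and 5.10 in light, 6.43, 6.46 and 6.49 after 1 day, 6.52, 6.60 and 6.47 after 3 days, and 6.61, 6.49 and 6.53 after 6 days. The pif5 arrays stepped down without overlap through day 6 and those of day 12 overlapped day 6, while the Col-0 arrays stayed within a narrow band from day 1 on. At day 3, which the choice did not use, the 3 pif5 arrays lay below the 3 Col-0 arrays with no overlap. The pif5 arrays at day 12 were still above those in light. In whole leaf blades, fewer cells of a type and less RNA per cell cannot be told apart.

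**Figure D1:**
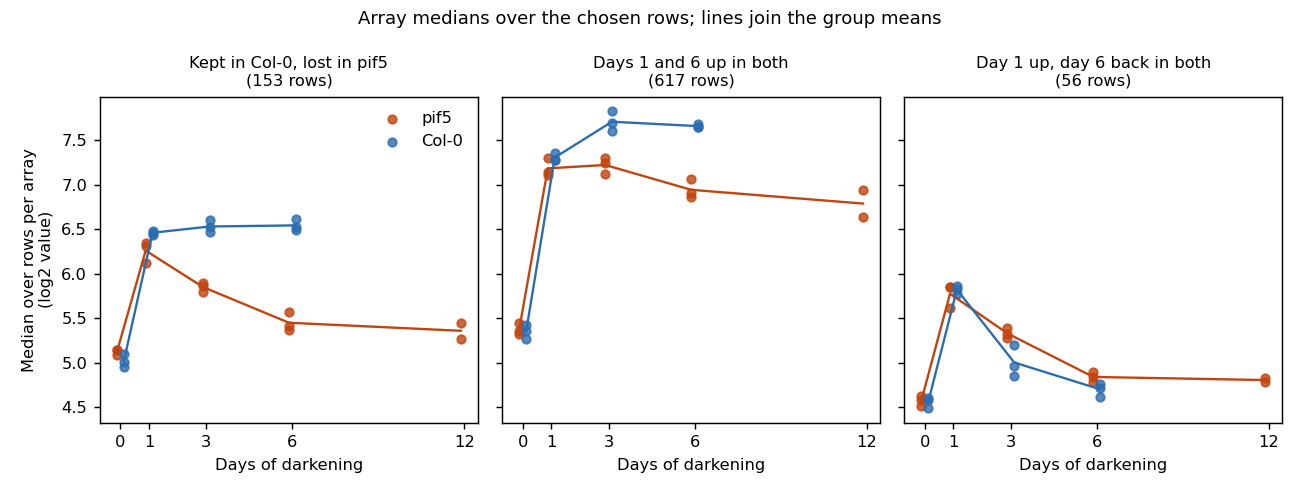
The plot of array medians shows the median log2 value over the chosen rows on each array (points, 3 per group and 2 for pif5 at day 12) against days of darkening, with lines joining the group means. In the left panel, for the 153 rows, pif5 averaged 5.85 and Col-0 6.53 at day 3; the middle and right panels give the 617 rows that were up at days 1 and 6 in both genotypes and the 56 rows that were up at day 1 and back by day 6 in both.

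As changes from light, the rows had a median of 1.06 in pif5 at day 1, 0.67 at day 3, 0.32 at day 6 and 0.19 at day 12 on the log2 scale. In Col-0 the medians were 1.26 at day 1, 1.33 at day 3 and 1.36 at day 6. The medians over all rows lay between -0.03 and 0.05 in these comparisons. The gap at day 6 (Col-0 change minus pif5 change) ran from 0.33 to 3.28, with a median of 1.12, and was at least 1 in 89 rows and under 0.5 in 6. The return in pif5 was partial in many rows, since 84 kept a change of 0.3 or more at day 6. Small differences were also present at the earlier days that the choice used. In light the rows were higher in pif5 by a median of 0.08, and at day 1 the median difference was -0.12 (pif5 minus Col-0). Over all rows these medians were 0.01 and -0.004. The rule used these arrays, so both differences can in part be built in, and neither is read as an effect of genotype.

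Since days 0, 1 and 6 chose the rows, the same values were read in replicates that took no part in a choice. The rule was applied to 2 replicates of each of these groups, and the changes were then taken from the replicate left out. The 127 rows chosen without replicate 1 had a median change at day 6 of 0.17 in pif5 and 1.46 in Col-0 in that replicate. The 178 rows chosen without replicate 2 had 0.52 in pif5 and 1.52 in Col-0, and the 169 chosen without replicate 3 had 0.29 in pif5 and 1.31 in Col-0. The gap was at least 0.5 in the left-out replicate in 114, 150 and 132 of these rows, in the same order. Over all rows, a gap of that size was found in 17.9%, 16.8% and 19.1%. In the 617 rows up at days 1 and 6 in both genotypes it was found in 58.3%, 49.3% and 48.9%. A gap of that size was thus also common in rows that stayed up in pif5. The low level in pif5 held least well in replicate 2, where 31 of the 178 rows kept a change of 0.8 or more. At pif5 day 6, replicate 2 was the highest of the 3 arrays in 107 of the 153 rows. Its part in the day 6 values was not tested beyond the choice made without it.

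The 6 rows with the largest gap show how far this pattern can go. Row 13412979 had 5.18, 5.15 and 4.76 in pif5 in light, 6.22, 6.30 and 6.42 after 1 day, 6.13, 6.31 and 6.79 after 3 days, 4.85, 5.81 and 5.13 after 6 days, and 5.14 and 3.96 after 12 days. In Col-0 it had 4.52, 5.29 and 5.25 in light, 7.40, 7.27 and 7.35 after 1 day, 8.79, 8.45 and 8.55 after 3 days, and 8.71, 8.52 and 8.39 after 6 days. In pif5 the row thus held its smaller day 1 level through day 3 and only then returned, while in Col-0 it went on to a level more than 3 units above light. Its day 3 difference was -2.19 ± 0.24 (SE, pif5 minus Col-0, limma adjusted p = 1.3e-07).

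Row 13409755 was already lower at day 3 than at day 1 in pif5. In pif5 it had 6.71, 6.95 and 6.75 after 1 day, 5.97, 6.25 and 5.65 after 3 days, 4.01, 5.39 and 4.77 after 6 days and 5.67 and 4.04 after 12 days. In Col-0 it had 7.05, 7.28 and 7.15 after 1 day, 8.08, 7.93 and 7.56 after 3 days and 8.17, 8.00 and 8.14 after 6 days. The day 1 means were 6.80 in pif5 and 7.16 in Col-0, and the genotypes did not overlap at day 3, where the difference was -1.90 ± 0.28 (SE, limma adjusted p = 9.7e-06). The 2 pif5 arrays at day 12 lay on either side of the mean in light, which was 5.09 ± 0.14 (SD, n = 3).

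Row 13376947 reached overlapping levels in both genotypes at day 1, with 7.27 ± 0.38 in pif5 and 7.30 ± 0.35 in Col-0 (SD, n = 3 each). At day 3 it had 5.80, 6.52 and 7.23 in pif5, a wide spread, and 8.49, 8.56 and 8.55 in Col-0. All pif5 arrays lay below all Col-0 arrays, and the difference was -2.02 ± 0.32 (SE, limma adjusted p = 3e-05). At day 12 pif5 had 5.60 and 3.90, the lower of them more than 1 unit below every pif5 array in light.

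The other 3 rows of this group differed in what happened in Col-0. Row 13453685 stood at 4.85 ± 0.27 in pif5 at day 3 and 4.63 ± 0.45 at day 6. In Col-0 it was higher at each later day, with means of 5.45 ± 0.25 (day 1), 6.08 ± 0.27 (day 3) and 6.81 ± 0.20 (day 6; SD, n = 3 each). The genotypes did not overlap in light either, where pif5 stood at 4.29 ± 0.20 and Col-0 at 3.64 ± 0.11 (SD, n = 3 each), and that difference enters the gap. Row 13373061 overlapped its level in light by day 3 in pif5, with 6.13, 5.94 and 5.52 against 5.09, 5.78 and 6.06 in light. In Col-0 it paused at 7.19 ± 0.15 (day 1) and 7.12 ± 0.10 (day 3) before it reached 8.32 ± 0.03 (day 6; SD, n = 3 each). Row 13365601 went down by steps in pif5, with 6.05 ± 0.16 (day 1), 5.70 ± 0.10 (day 3) and 5.00 ± 0.36 (day 6; SD, n = 3 each), and was level in Col-0, between 6.78 and 7.21 on average from day 1 to day 6. The differences at day 3 were -1.23 for row 13453685, -1.25 for row 13373061 and -1.08 for row 13365601 (limma adjusted p = 1e-05, 0.0027 and 0.00012).

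**Figure D2:**
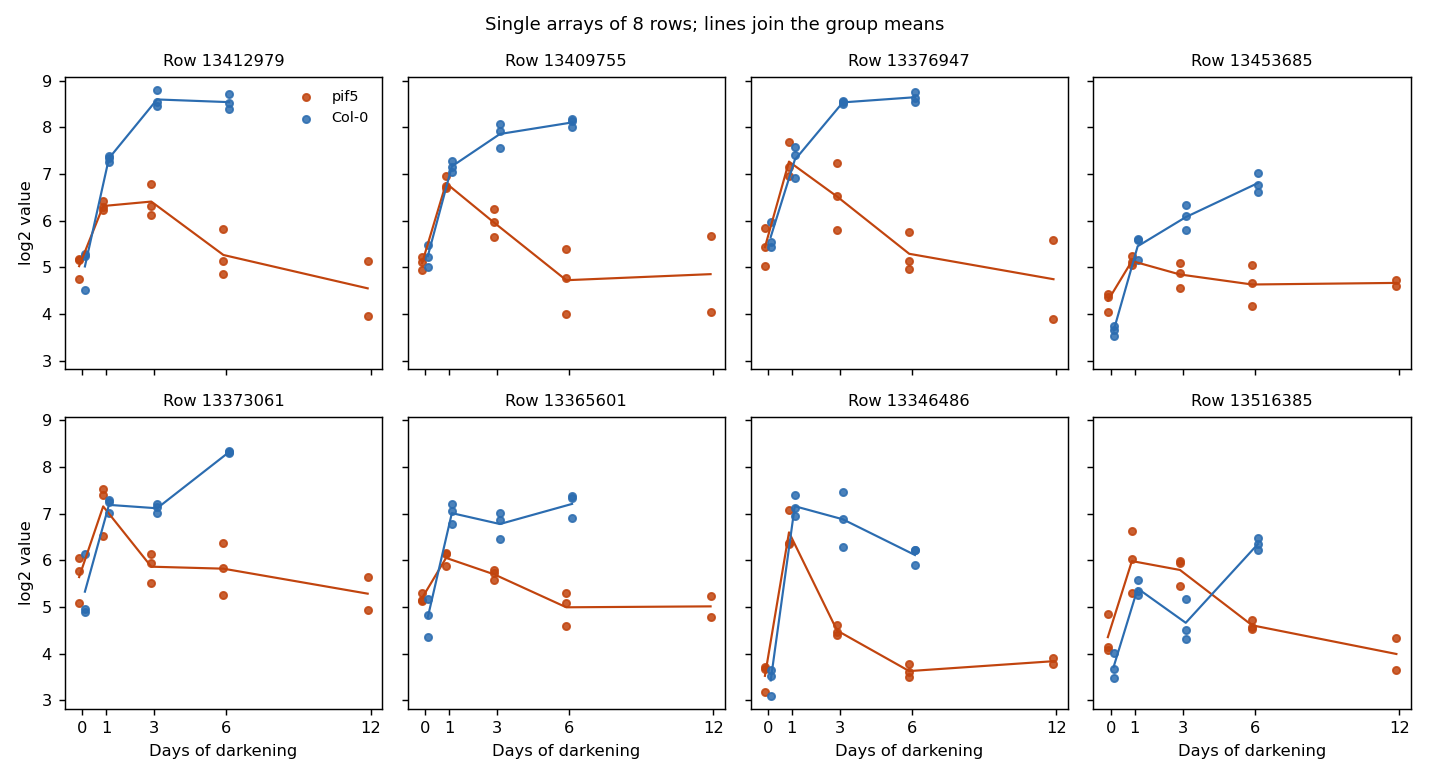
The plot of single arrays shows the log2 value of 8 rows on every array against days of darkening, with lines joining the group means of pif5 and Col-0. The first 6 panels are the rows with the largest gap at day 6; row 13346486 had the most negative and row 13516385 the most positive difference between pif5 and Col-0 at day 3.

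The first test asked whether the genotypes had already parted after 3 days of darkening. Of the 153 rows, 107 (69.9%) were lower in pif5 than in Col-0 at day 3 and 2 were higher (limma with Benjamini-Hochberg adjustment over all 26676 rows, adjusted p under 0.05). Over all rows, 9.8% were lower and 8.53% were higher by the same test. The remaining 44 rows did not pass, and 33 of the 107 were lower by at least 1 on the log2 scale. The median difference was -0.64, against -0.02 over all rows. Arrays did not overlap, with pif5 lower, in 114 rows (74.5%), against 16.4% of all rows. The rows were chosen for a gap at day 6 of the same genotypes, and a difference at day 3 is a neighbouring time point of the same course.

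**Figure D3:**
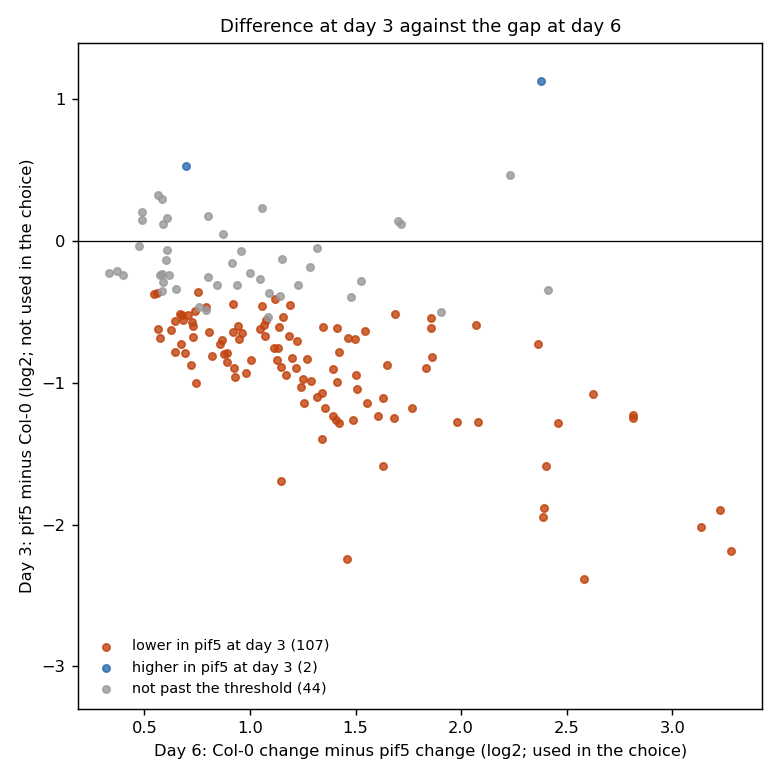
The scatter plot sets the day 3 difference (pif5 minus Col-0, log2) of each of the 153 rows against its gap at day 6 (Col-0 change minus pif5 change, log2). The 107 rows that passed as lower in pif5 fill the lower part, and the 2 that passed as higher lie above 0.

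The most negative difference at day 3 was that of row 13346486. In pif5 it had 3.67, 3.19 and 3.72 in light, 7.07, 6.36 and 6.37 after 1 day, 4.62, 4.47 and 4.40 after 3 days, 3.50, 3.61 and 3.78 after 6 days and 3.90 and 3.78 after 12 days. In Col-0 it had 3.66, 3.11 and 3.53 in light, 6.94, 7.13 and 7.41 after 1 day, 6.88, 7.47 and 6.30 after 3 days, and 5.90, 6.22 and 6.23 after 6 days. The early step was thus more than 3 units in both genotypes, and most of it was gone in pif5 by day 3. The difference at day 3 was -2.38 ± 0.22 (SE, limma adjusted p = 6.9e-09). In Col-0 this row was also below its day 1 level by day 6, by about 1 unit.

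Row 13360268 took another course. It had 4.08, 4.91 and 4.43 in pif5 and 6.55, 6.63 and 6.96 in Col-0 at day 3, with a difference of -2.24 ± 0.18 (SE, limma adjusted p = 6.6e-10). At day 1 the genotypes had stood at 4.84 ± 0.29 in pif5 and 5.02 ± 0.15 in Col-0 (SD, n = 3 each). Col-0 thus peaked at day 3 and was lower again at day 6, when pif5 averaged 4.01 ± 0.23 and Col-0 5.54 ± 0.15 (SD, n = 3 each). Rows 13412979 and 13376947, described above, held the next places in this order.

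A few rows had a higher level in pif5 than in Col-0 at day 3. Row 13516385 had 5.94, 5.99 and 5.46 in pif5 and 4.51, 5.18 and 4.31 in Col-0, so that all pif5 arrays were higher (difference 1.13 ± 0.26, SE, limma adjusted p = 0.0018). The genotypes did not overlap in light either, with 4.36 ± 0.42 in pif5 and 3.72 ± 0.28 in Col-0 (SD, n = 3 each). That difference enters the one at day 3, where the change from light was 1.44 in pif5 and 0.94 in Col-0. In pif5 the day 3 arrays lay within the range of day 1, and in Col-0 the row dipped between 5.40 ± 0.17 (day 1) and 6.35 ± 0.13 (day 6; SD, n = 3 each). Row 13464447 had 5.15, 5.20 and 5.20 in pif5 and 4.62, 4.83 and 4.51 in Col-0 (difference 0.53 ± 0.14, SE, limma adjusted p = 0.0059). Its Col-0 level at day 1, 6.26 ± 0.27, was well above that at day 6, 5.05 ± 0.12 (SD, n = 3 each). Rows 13452335 and 13444543 also had positive differences, 0.47 and 0.32, that did not pass (limma adjusted p = 0.16 and 0.27). Both were already higher in pif5 in light, with means of 4.12 against 3.58 in Col-0 for row 13452335 and 5.40 against 4.99 for row 13444543. Their day 3 change from light was smaller in pif5 than in Col-0 (0.41 against 0.48, and 0.73 against 0.82).

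In Col-0, day 3 lay between the days that chose the rows. At day 3, 139 of the 153 rows stood at least 0.8 above light, against 9.13% of all rows, and 14 stood closer to it. This comparison shares the arrays in light with the choice, and nothing is read from it beyond the values. Day 3 was above day 1 in 93 rows, day 6 above day 3 in 82 and day 6 above day 1 in 94, and 40 rows climbed at both steps. Of all 26676 rows, 13683 were higher at day 3 than at day 1 in Col-0. The shares of all rows for the other steps were not taken. The median Col-0 change at day 3 was 109% of that at day 1 in the same row, with quartiles of 89.5% and 132%.

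In pif5 the return was spread over days 3 and 6. At day 3 the change from light was still at least 0.8 in 43 rows, between 0.5 and 0.8 in 80 and under 0.5 in 30. Over all rows, 5.94% had a change of at least 0.8 and 73.3% an absolute change under 0.5 at that day. These counts share the arrays in light with the choice. The median row kept 62.4% of its day 1 change at day 3 (quartiles 50.6% and 77.7%). The median step in pif5 was -0.37 between days 1 and 3, -0.37 between days 3 and 6, and -0.10 between days 6 and 12. Level was lower at day 3 than at day 1 in 147 rows, lower again at day 6 in 139 of these, and lower again at day 12 in 93. Of all 26676 rows, 14477 were lower at day 3 than at day 1 and 15644 were lower at day 6 than at day 3. Since the rule asked for high values at day 1 and low ones at day 6, the falls to day 3 and to day 6 are both in part built in.

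The rows under 0.5 at day 3 in pif5 had the smaller changes in Col-0 too. The 30 rows already under 0.5 at day 3 in pif5 had Col-0 medians of 1.17 at day 1, 1.12 at day 3 and 1.26 at day 6. The 43 rows still at 0.8 or more had Col-0 medians of 1.53, 1.65 and 1.60. The late group also had the larger day 1 median in pif5, 1.22 against 1.01 in the early group. These are medians of groups formed on the same values, without a test.

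**Figure D4:**
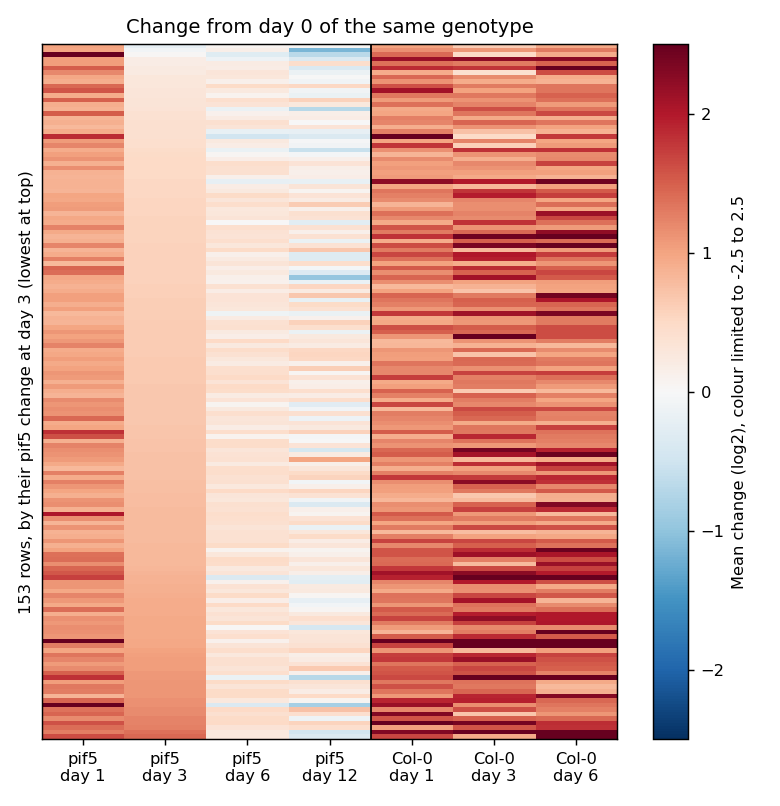
The heat map shows the mean change from day 0 of the same genotype (log2, colour) for the 153 rows, ordered by their pif5 change at day 3, with pif5 at days 1, 3, 6 and 12 on the left and Col-0 at days 1, 3 and 6 on the right. The pif5 columns pale from day 1 to day 12, and the Col-0 columns stay red.

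The second test compared day 12 with day 3 in pif5. The rule asked for a low pif5 level at day 6, between these days, so a fall after day 3 is in part built in. The median pif5 step was -0.37 between days 3 and 6 and -0.10 between days 6 and 12. At day 12, 76 of the 153 rows (49.7%) were lower than at day 3 and 0 were higher (limma adjusted p under 0.05 over all rows), against 5.72% lower and 4.58% higher among all rows. At an unadjusted limma p under 0.05 these counts were 103 and 0. The share of all rows at that threshold was not taken, so nothing is read from those 2 counts. The median difference was -0.52, against -0.05 over all rows. Arrays did not overlap, with day 12 lower, in 111 rows (72.5%), against 22.3% of all rows. The count rests on 2 arrays at day 12, and it was 32 without replicate 2 and 64 without replicate 1. Replicate 1 was the higher of the pair in 112 of the 153 rows, and the median absolute difference between the pair was 0.20. It was the higher in 13464 of all 26676 rows and in 472 of the 617 rows up at days 1 and 6 in both genotypes.

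Against light, 126 rows were within 0.5 at day 12, which 72.3% of all rows were. This comparison again shares the arrays in light with the choice. Of the others, 20 stood at 0.5 or more above light and 7 at 0.5 or more below it. Level at day 12 was below that at day 6 in 102 rows. The same was found in 13841 of all 26676 rows and in 420 of the 617 rows up at days 1 and 6 in both genotypes. Only row 13444543 stood at least 0.8 above light at day 12, with 6.18 and 6.59 at day 12 against 5.39, 5.53 and 5.29 in light. Row 13354387 had the lowest mean change, -1.14, with 5.86 and 4.51 at day 12 against 6.02, 6.39 and 6.57 in light. Both its day 12 arrays lay below all arrays in light, but far apart (SD 0.95, n = 2), so its size rests on replicate 2. Both rows were picked out after their values were seen.

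**Figure D5:**
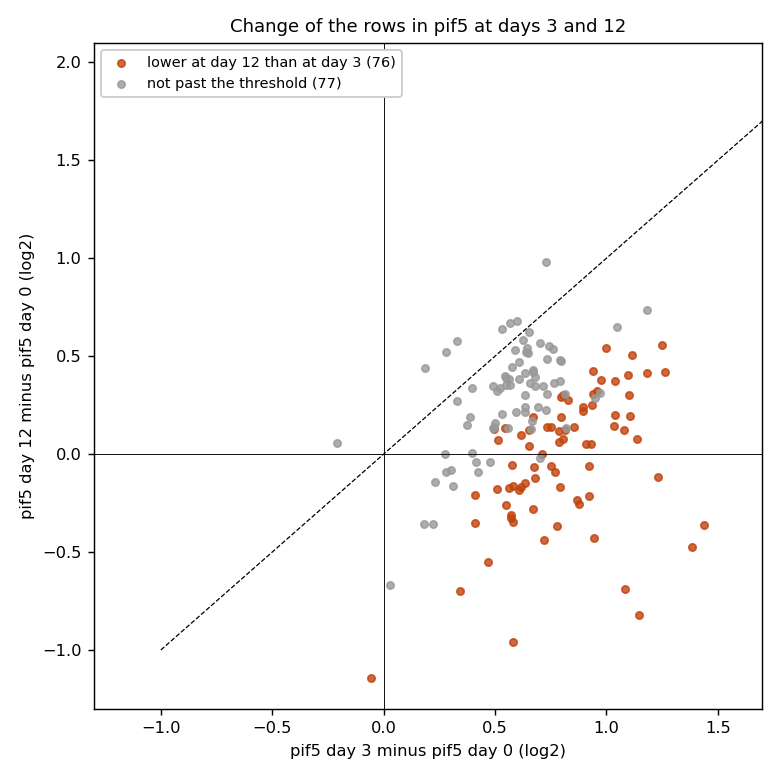
The scatter plot sets the pif5 change from light at day 12 (log2) of each of the 153 rows against that at day 3, with the dashed line marking equal values. Of the rows, 76 passed as lower at day 12 than at day 3, and 145 lie below the line. Of all 26676 rows, 15619 were lower at day 12 than at day 3.

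The most negative day 12 difference was that of row 13478486. In pif5 this row had 9.08, 9.15 and 8.01 after 1 day, 6.31, 6.23 and 6.28 after 3 days, 4.46, 5.00 and 4.81 after 6 days and 4.51 and 4.10 after 12 days, against 4.93, 5.40 and 5.05 in light. The difference was -1.97 ± 0.27 (SE, pif5 day 12 minus day 3, limma adjusted p = 1.9e-05). In Col-0 it averaged 7.13 ± 0.13 (day 1), 6.15 ± 0.55 (day 3) and 6.33 ± 0.32 (day 6; SD, n = 3 each). All pif5 arrays of this row were above all Col-0 arrays at day 1 and below them at day 6, and at day 3 the difference was 0.12 (limma adjusted p = 0.81). Row 13412979 had a difference between days 3 and 12 of -1.86 ± 0.27 and row 13516385 of -1.80 ± 0.29 (SE, limma adjusted p = 3.7e-05 and 0.00011). Their day 12 arrays lay apart, at 5.14 and 3.96 in row 13412979 and at 4.34 and 3.65 in row 13516385. Under the alternatives run, the differences ranged from -2.45 to -1.27 and from -2.14 to -1.45, in the same order.

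At the other end, the 3 rows with the most positive difference between days 3 and 12 stood within 0.5 of light by day 3. Row 13542284 had 6.75, 7.07 and 7.26 in pif5 at day 3 and 7.36 and 7.22 at day 12, against 7.28, 7.36 and 7.06 in light. Row 13512264 had 5.15, 5.51 and 5.52 after 3 days and 5.42 and 5.87 after 12 days. Row 13369315 had 3.69, 4.17 and 3.99 after 3 days and 4.22 and 4.19 after 12 days. Their day 12 differences were 0.27, 0.25 and 0.25, and none passed (limma adjusted p = 0.38, 0.39 and 0.47). At day 3 all 3 rows were lower in pif5 than in Col-0, with differences of -0.85, -0.97 and -0.69 (limma adjusted p = 0.00011, 1.2e-05 and 0.0028).

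These 153 rows were part of 947 that stood at least 0.8 above light at day 1 in both genotypes and at day 6 in Col-0. Of the rest, 176 had a change between 0.5 and 0.8 in pif5 at day 6, 617 a change of 0.8 or more, and 1 a change of -0.5 or below. Among the 617 rows kept in both genotypes, 39.5% were lower in pif5 at day 3 and 5.19% higher, with a median difference of -0.30. A smaller set of 56 rows, up at day 1 and back within 0.5 of light at day 6 in both genotypes, had 8.93% lower and 23.2% higher in pif5 at day 3, with a median difference of 0.21. Between days 3 and 12 in pif5, 38.1% of the 617 rows and 37.5% of the 56 rows passed as lower, against 5.72% of all rows. Arrays did not overlap, with day 12 lower, in 55.8% of the 617 rows and 75% of the 56 rows, against 72.5% of the 153. The choice of the 56 rows also asked for a low pif5 change at day 6. A lower level at day 12 than at day 3 was therefore found in all 3 sets, while at day 3 the median difference between the genotypes had the opposite sign in the 56 rows. Whether these sets differ from each other was not tested.

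At the edge of the rule, the last rows inside the limit at day 6 in pif5 were 13474521, with a change of 0.497, and 13544411, with 0.498. The first outside it were 13396409, with 0.501, and 13436348, with 0.503. Row 13474521 stood at -0.06 from light at day 12 in pif5, row 13544411 at 0.56, row 13396409 at 0.62 and row 13436348 at 0.22. The limit therefore separates rows with nearly equal day 6 values in pif5, and membership moved with the scaling of the arrays. After quantile normalization the rule found 133 rows, 102 of them among the 153, and with arrays centred on their medians it found 127, 114 of them among the 153.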

How the data were processed

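Transcript levels were measured on 26 single-colour arrays of leaf blades. The deposited table holds 1 log2 value per probe set and array, and the authors made these values with the package oligo, per the submitters' processing notes. How oligo corrected background, normalized and summarised probes, and in which version, is not stated in these notes. Biotinylated cRNA was made from total RNA, per the labels' protocols. The medians of the 26 arrays ran from 4.20 to 4.33 and single values from 2.24 to 13.50, so the main tests used the values unscaled. No scan or hybridisation batch was analysed here. The number of arrays limits the precision.

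The titles gave groups and replicate numbers. All 9 groups entered 1 limma fit (version 3.58.1, R 4.3.3) with 17 residual degrees of freedom, followed by eBayes and Benjamini-Hochberg adjustment over all 26676 rows, with a threshold of 0.05. No filter on low values was applied. The 2 contrasts tested, pif5 against Col-0 at day 3 and pif5 day 12 against pif5 day 3, share the pif5 day 3 arrays. The fit was tested on simulated data.

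The members, the comparison sets and the gene lists were chosen with earlier results of these data known. Rows named in the text are the 6 with the largest gap at day 6, the 4 most negative and 4 most positive at day 3, the 3 most negative and 3 most positive between days 3 and 12 in pif5, and those at the edge of the rule. Gene names were to be used only if the photosynthesis and ribosomal rows lay at percentile 80 or above in light. Other gene lists and cell type markers were not used here. Alternatives were 2 scalings, a filter on low rows, another prior, a fit of 2 groups only, a replicate block, leaving out each array, other limits in the rule and rows listed with 1 gene.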

Additional observations from a re-analysis of the deposited data

How the results depend on the processing

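Both tests kept the direction of their median difference under every alternative run. With the 153 rows held fixed, the count lower in pif5 at day 3 was 102 with quantile normalization, 109 with arrays centred on their medians and 102 in a fit of the 2 groups only. For day 12 against day 3 in pif5 these counts were 68, 57 and 58. The replicate numbers are not said to mark shared plants, and deviations of same-numbered arrays correlated by 0.02 to 0.08 at day 3 and by -0.11 and -0.01 for day 12 with day 3. The 2 day 12 arrays deviate from their mean by equal and opposite amounts, so their correlations cannot settle whether numbers are paired. Not every array correlated best with its own number. With a replicate block the counts were 108 and 69, and no call of a named row changed. Leaving out 1 array gave 94 to 109 rows lower at day 3, 2 higher, and a median difference of -0.68 to -0.61. For day 12 it gave 32 to 78 rows lower, 0 higher and a median of -0.60 to -0.41, with 32 when pif5 day 12 replicate 2 was left out. With rows chosen anew, the rule found 147 to 176 rows, of which 96 to 128 were lower and 2 to 4 higher at day 3, with 4 when pif5 day 0 replicate 1 was left out. Between day 3 and day 12, 71 to 91 were then lower, with medians of -0.67 to -0.61 at day 3 and -0.53 to -0.50 for day 12.

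The counts moved with the number of rows admitted. Rows listed with 1 gene left 92, with 65 lower and 1 higher at day 3 and 44 lower at day 12. With 1.0 in place of 0.8 the rule found 67 rows, 51 lower at day 3 and 41 at day 12, with a median of -0.66 for day 12. With an absolute pif5 change under 0.3 at day 6 it found 65 rows, 52 lower and 1 higher at day 3 and 38 lower at day 12, with a median of -0.82 at day 3. With 0.6 in place of 0.8 the cut at 200 was reached, 1 row was higher at day 3 and the median was -0.76. With rows chosen anew, quantile normalization gave 1 row higher at day 12 and median centring 47 lower, and the cause was not tested. For named rows, 584 values under alternatives kept direction and side of the threshold, and row 13452335 passed at day 3 under 1 alternative (limma adjusted p = 0.041).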
